A study of Mus musculus with 2 samples.

Results

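The 10 genes described here are transcriptional targets of the tumour suppressor p53: Cdkn1a, Mdm2, Ccng1, Phlda3, Zmat3, Sesn2, Gdf15, Trp53inp1, Eda2r and Ptchd4. They were taken as a named list from the 32285 genes in both matrices and were not ranked by a measured value. Earlier results of these data were known when the list was set. All 10 were detected in both depots. The study profiled adipocyte precursors by single-cell RNA sequencing, with 1 library from subcutaneous white adipose tissue (WAT) and 1 from interscapular brown adipose tissue (BAT). Both came from pooled male and female C57/BL6J pups, at postnatal day 0 by the labels whereas the methods name another day, with no engineered allele or drug named in the labels, and the stromal vascular cells were grown to confluency over 4 days before capture. Digestion with collagenase was longer for brown than for white tissue, so that depot, digestion and library cannot be told apart in any comparison of BAT with WAT.

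p53 is a transcription factor that is held at a low level in unstressed cells because the ubiquitin ligase Mdm2, itself a p53 target, marks it for degradation. DNA damage, replication stress or ribosomal stress releases p53, which then binds paired half-sites near its target genes and raises genes for cell cycle arrest, repair, metabolism and, at higher activity, cell death. In the adipose lineage p53 is known for its influence on precursor expansion and differentiation.

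The members fall into 5 groups by role. Cdkn1a encodes p21, the inhibitor of cyclin-dependent kinases through which p53 stops the cycle in G1. Mdm2 and Ccng1, a cyclin that binds a phosphatase acting on Mdm2, belong to the feedback on p53. Phlda3 competes with Akt for membrane lipids and Zmat3 is an RNA-binding zinc finger protein. Sesn2, a restraint on mTORC1, the secreted hormone Gdf15 and Trp53inp1, a cofactor of p53 and of autophagy, are stress response genes. Eda2r is a receptor for ectodysplasin A2 and Ptchd4 is a Patched-like membrane protein that has been linked to Hedgehog signalling.

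The genes lie on 8 chromosomes of GRCm38. Cdkn1a spans chr17:29090976-29100727 on the plus strand, and Ptchd4 lies on the same chromosome at chr17:42315947-42505077, also on the plus strand. The feedback genes are at chr10:117688875-117710758 (Mdm2, minus) and chr11:40748552-40755311 (Ccng1, minus). Phlda3 is at chr1:135766119-135769136 (plus) and Zmat3 at chr3:32334792-32366014 (minus). Of the stress response genes, Sesn2 and Trp53inp1 share a chromosome, at chr4:132492032-132510501 (minus) and chr4:11156431-11174379 (plus), and Gdf15 is at chr8:70629393-70632456 (minus). Eda2r is X-linked, at chrX:97333840-97377216 (minus). Sesn2 overlaps the annotated gene Gm12981 on its own strand, where a read cannot be assigned to either gene alone.

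Promoters are shown for the 3 members whose promoter window held a p53 half-site, because a pair of half-sites is the element p53 binds. Each line gives the 250 bases upstream of a RefSeq start on the strand of the gene, from GRCm38.p6, with the perfect half-sites in capitals. For Cdkn1a this is the more upstream of its RefSeq starts. The windows are chr17:29090729-29090978 on the plus strand for Cdkn1a, chr11:40755287-40755536 on the minus strand for Ccng1 and chr10:117710759-117711008 on the minus strand for Mdm2.
Cdkn1a: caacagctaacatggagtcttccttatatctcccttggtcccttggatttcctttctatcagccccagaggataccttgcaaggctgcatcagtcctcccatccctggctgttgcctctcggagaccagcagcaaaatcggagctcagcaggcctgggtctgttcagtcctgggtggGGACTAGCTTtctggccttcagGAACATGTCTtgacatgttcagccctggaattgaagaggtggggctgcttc
Ccng1: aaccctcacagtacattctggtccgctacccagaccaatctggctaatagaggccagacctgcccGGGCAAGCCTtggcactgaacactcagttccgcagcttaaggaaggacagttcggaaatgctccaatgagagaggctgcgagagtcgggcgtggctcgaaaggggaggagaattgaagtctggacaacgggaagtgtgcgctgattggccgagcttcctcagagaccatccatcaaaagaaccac
Mdm2: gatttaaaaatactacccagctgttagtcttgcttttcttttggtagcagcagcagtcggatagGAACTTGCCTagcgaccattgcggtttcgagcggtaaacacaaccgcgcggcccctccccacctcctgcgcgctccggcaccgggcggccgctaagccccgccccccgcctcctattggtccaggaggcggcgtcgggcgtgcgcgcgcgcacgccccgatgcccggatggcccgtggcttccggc

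The p53 half-site motif has 10 letters and reads the same on both strands. It was searched in windows from 250 bases before to 50 bases after each RefSeq start, and 2745 of 32851 windows held it (8.36%). Among the members, 8 had 11 such windows, and 3 windows held it. In Cdkn1a the half-sites GGACTAGCTT and GAACATGTCT began 73 and 51 bases before the more upstream of its RefSeq starts. They formed a pair of perfect half-sites separated by no more than 13 bases, an arrangement found in 24 of all windows (0.0731%). The 10 bases directly after GAACATGTCT, tgacatgttc, match the motif with 1 mismatch and are not in capitals. The letters do not tell which of these stretches p53 binds together with GAACATGTCT. The window of the other Cdkn1a start, at chr17:29093519-29093818, held 0 half-sites. Ccng1 held GGGCAAGCCT at 185 bases and Mdm2 GAACTTGCCT at 186 bases before the start, each without a second perfect half-site within that distance. With mismatches allowed, the best pair in the window had 1 mismatch for Ccng1 and 4 for Mdm2. In Ccng1 the 10 bases directly before the half-site, agacctgccc, hold that 1 mismatch. A match describes letters only, and many p53 elements lie in introns or farther upstream, outside these windows.

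Values are counts of unique molecular identifiers (UMIs), summed over the cells of a group and divided by all UMIs of those cells (CPM). The parentheses after a level or a log2 ratio give a 95% interval, exact Poisson for a level and conditional exact binomial for a ratio. These intervals cover counting error only, since neither depot has a replicate library, and no test, standard error or p-value was computed. A ratio was called if it reached 1.5-fold in either direction in a gene with at least 5 CPM over both groups, and the share of all genes called in the same comparison is given as its background. Reads were taken at the 3' end and were not scaled by length, so levels are compared between cells and never between genes. After filtering, 4331 white and 5958 brown precursor cells remained, with medians of 26949 and 26413 UMIs. The 6 precursor markers summed to 6226 and 5760 CPM with none at 0, whereas the lists for myeloid, glial and myogenic cells, of 6 markers each, lay between 3.02 and 21.5 CPM in both libraries. The 4 endothelial markers summed to 3.31 and 3.42 CPM, and the 6 mural markers to 3768 and 4956 CPM, of which Acta2, which cultured fibroblasts also make, held 3559 and 4679 CPM. The rest of the mural sum was still larger than the glial, myeloid, myogenic or endothelial sum. Mural cells were not set apart or removed. Both libraries held 9 cell barcodes in common.

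Cdkn1a was the member that differed most between the depots. White precursors held 109 CPM (107 to 110.4) and brown precursors 177 CPM (175 to 179), a log2 ratio of 0.71 (0.68 to 0.74) or 1.63-fold. It was the 1 member of 10 called higher in BAT, against a background of 2.13% of the 10437 genes tested, and none was called lower. For 9 members the ratio was above 0, with a median of 0.25 over the members and -0.04 over all genes tested.

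The feedback genes were higher in brown cells by less than 1.5-fold. Mdm2 was at 55.2 and 63.0 CPM in WAT and BAT, and Ccng1 at 90.4 and 122 CPM, with log2 ratios of 0.19 (0.15 to 0.23) and 0.44 (0.40 to 0.47). Phlda3, the Akt competitor, was at 189.7 and 239.5 CPM, and Zmat3 at 37.6 and 43.5 CPM. The stress response genes did not differ as 1 group. Gdf15 was at 17.1 CPM in WAT and 24.4 CPM in BAT, a log2 ratio of 0.51 (0.44 to 0.59). Sesn2 was at 36.8 and 35.3 CPM and had the lowest ratio of the list, -0.06 (-0.12 to -0.01). Trp53inp1 was at 34.8 and 39.5 CPM. For the membrane proteins the levels were 13.8 and 17.0 CPM (Eda2r) and 24.7 and 27.0 CPM (Ptchd4).

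The brown excess of Cdkn1a was present in each cell cycle phase, with log2 ratios of 0.73 in G1, 0.51 in S and 0.71 in G2/M. These ratios were not matched for the depth of the cells, and its levels by depth are given below. Cells were also called female or male from Xist and Y-linked transcripts, since each library pooled both sexes, and the ratio was 0.70 in female and 0.68 in male cells. In G1 cells 2 members were called, Cdkn1a and Gdf15 (0.65), with a background of 2.21% higher. The same 2 were called among male cells (background 2.67% higher), 0 in S phase (background 5.56% in either direction) and Cdkn1a alone in G2/M (background 2.05% higher). Between the committed precursors of the depots the calls were Cdkn1a, Gdf15 and Ptchd4 (1.20), all higher in brown, with a background of 5.46% higher. Between the FAPLs described next they were Cdkn1a, Eda2r (0.66) and Ptchd4 (0.62), also higher in brown, with a background of 2.55% higher. More cells held a Cdkn1a UMI in BAT, 76.3% against 65.3%, and at an equal depth of 10000 UMIs per cell the shares were 56.2% and 43.8%.

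**Figure D1:**
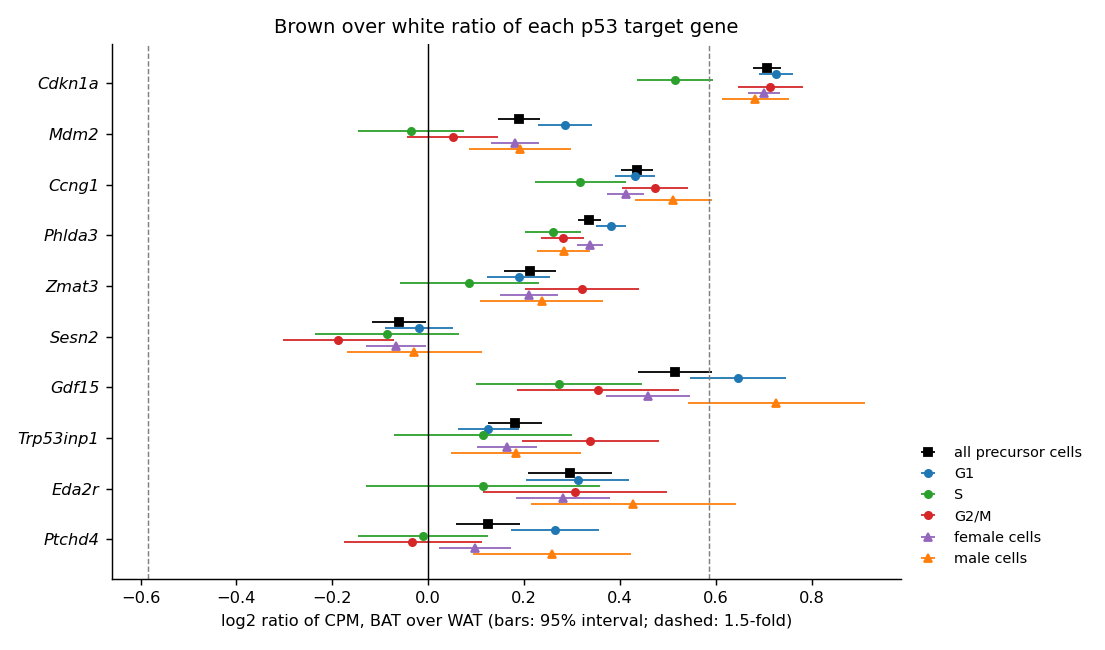
Log2 ratio of CPM, BAT over WAT, for each of the 10 genes (x axis), over all precursor cells, within each phase and within each sex, with bars for the 95% counting interval and dashed lines at 1.5-fold. Cdkn1a lies at 0.71 over all precursor cells and stays to the right of 0 in every subset, and Sesn2 lies at -0.06.

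Genes around the pathway were read from lists of the same kind. Over all genes tested, 2.13% were called higher and 3.32% lower in BAT, and the counts below stand beside these shares. Of 24 other p53 targets, 20 reached 5 CPM, of which Ephx1 (epoxide hydrolase, 0.74) and Dcxr (0.85) were called higher in BAT and Gadd45a, a growth arrest gene, lower (-0.70). Trp53, which encodes p53 itself, was at 123 CPM in WAT and 118 CPM in BAT. Among 9 measured of 11 p53 regulators, 1 was called, Cdkn2a, whose Arf product restrains Mdm2. It was higher in BAT by 0.83 on the log2 scale. UMIs were counted per gene, which does not tell Arf from the CDK inhibitor that Cdkn2a also encodes. Among 6 CDK inhibitors other than Cdkn1a, Cdkn2a and its neighbour Cdkn2b (0.79) were higher in BAT and the imprinted Cdkn1c was lower, at 100.4 against 239 CPM. Sesn2 and Gdf15 also respond to the stress factor ATF4, and of 12 ATF4 stress response genes 1 was called, Slc7a11, which was lower in BAT (-0.80). Of 9 immediate early genes, which tissue dissociation is known to induce, Fos, Fosb and Atf3 were lower in BAT, with log2 ratios of -0.59, -0.80 and -0.71. Here 4 days of culture lay between the digestion of the tissue and capture, and the cultured cells were lifted with trypsin directly before capture. The part of either step in these ratios was not tested.

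The authors' clusters separated the members within each depot. The study named 4 clusters of early white precursors (wAPC 1 to wAPC 4), committed adipocyte precursors (wCAPs), which are high in Pparg and Fabp4, and cells resembling fibro-adipogenic progenitors (wFAPLs), with the brown counterparts bAPC 1 to bAPC 5, bCAPs and bFAPLs. Its names were available for the first cells of each matrix, 462 of them in wAPC 1, 674 in wCAPs and 256 in wFAPLs, and 415 in bAPC 2, 296 in bCAPs and 279 in bFAPLs. Because the clusters were made from these same counts, values across them are a description. Highest and lowest cluster differed by at least 1.5-fold for 9 of the 10 members in WAT and 8 in BAT, where 42.8% and 55.5% of all genes did so.

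Cdkn1a in WAT was highest in wCAPs at 146 CPM (140.3 to 151), followed by wAPC 1 at 119.6 CPM, wAPC 2 at 86.2 CPM and wFAPLs at 80.9 CPM, the last pair within counting error of each other. It was lowest in wAPC 3 and wAPC 4, at 61.3 CPM in both, 2.38-fold under wCAPs. In BAT the order ran from bAPC 2 at 235 CPM (227 to 244) over bCAPs at 219.9, bAPC 1 at 192, bAPC 4 at 184, bFAPLs at 133 and bAPC 5 at 129 CPM to bAPC 3 at 86.5 CPM, 2.72-fold lower. There bAPC 1 and bAPC 4, and bFAPLs and bAPC 5, were within counting error of each other. In wAPC 3 and bAPC 3, 51.5% and 60.2% of cells were in G2/M. Against the other labelled cells of their library, wAPC 3 had 4 members called lower (background 6.62% lower) and bAPC 3 had 5 (background 7.03% lower), in both cases including Cdkn1a, Gdf15, Trp53inp1 and Ptchd4. Within G1 cells Cdkn1a was at 70.4 CPM in wAPC 3, 41.0 CPM in wAPC 4 and 111 CPM in bAPC 3. With G1 cells alone, wAPC 3 had 6 members called lower (background 10.1% lower) and bAPC 3 had 3 (background 10.2% lower).

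wCAPs were the highest white cluster for 7 members, Cdkn1a, Mdm2, Ccng1, Zmat3, Sesn2, Trp53inp1 and Eda2r. Trp53inp1 spanned 54.3 CPM in wCAPs to 22.9 CPM in wAPC 3, and Eda2r 2.06-fold between its highest and lowest cluster. In BAT the lead was divided. bCAPs were highest for Mdm2, Ccng1, Trp53inp1 (56.6 CPM) and Eda2r, while bAPC 2 was highest for Cdkn1a, Phlda3, Sesn2 and Gdf15, and bAPC 4 for Zmat3 and Ptchd4. Several of these leads were within counting error of the next cluster, in BAT for Mdm2, Trp53inp1 and Eda2r (bCAPs and bAPC 1), Sesn2 (bAPC 2 and bAPC 1), Gdf15 (bAPC 2 and bAPC 4) and Zmat3 (bAPC 4 and bCAPs), and in WAT for Sesn2 (wCAPs and wAPC 3). The highest white cluster was the same for all 10 members with labels carried over to the remaining cells, in G1 cells and with every cell weighted equally. The brown one was the same for 7, 8 and 8 members under these settings, with Zmat3 the exception in each, joined by Sesn2 in the first 2 and by Gdf15 in the first and the last.

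Gdf15, which is secreted, and Ptchd4 had the widest spread over clusters. Gdf15 ranged from 24.2 CPM (21.7 to 26.8) in wAPC 1 down to 5.15 CPM (3.68 to 7.02) in wAPC 2, and from 39.6 CPM (36.1 to 43.3) in bAPC 2 and 38.8 CPM (33.4 to 44.9) in bAPC 4 down to 6.81 CPM (4.27 to 10.3) in bAPC 5. Ptchd4 had its highest level in 1 cluster of each depot, at some distance from the next. It stood at 98.7 CPM (89.9 to 108) in bAPC 4, against 27.5 CPM in bAPC 1, the next brown cluster, and 14.2 CPM in bAPC 3. In WAT the level was 61.9 CPM in wAPC 1, 28.5 CPM in wAPC 2 and between 8.25 and 11.3 CPM in the other 4 clusters. The study itself names Ptchd4 as a marker of wAPC 1, so the white peak restates how that cluster was described. Phlda3 was highest in wAPC 4, at 265 CPM, a cluster in which Cdkn1a was at its lowest. In the 15 cells named Differentiating wFAPLs, too few to be ranked, Cdkn1a was at 90.2 CPM, Gdf15 at 37.7 CPM and Ptchd4 at 6.29 CPM.

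**Figure D2:**
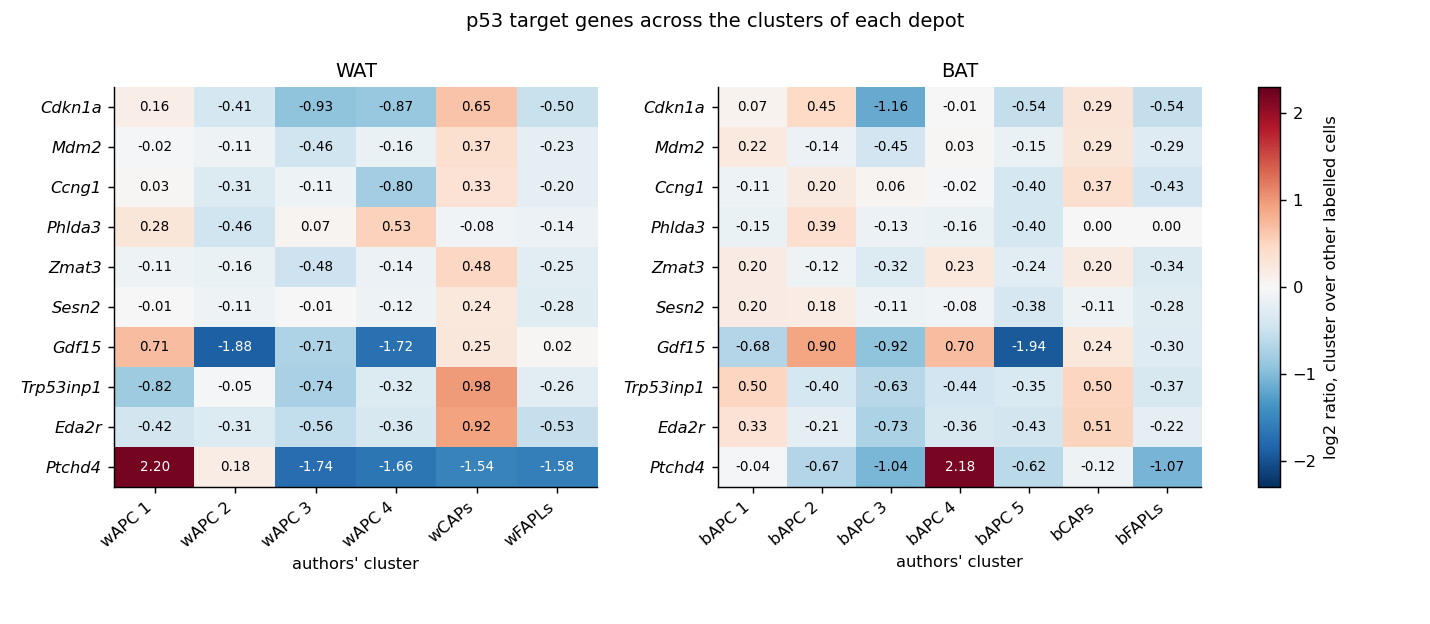
Log2 ratio of each gene (rows) in each of the authors' clusters over the other labelled cells of the same library (columns), in WAT and BAT, on a colour scale. Ptchd4, named by the study as a marker of wAPC 1, stands out there and in bAPC 4. Both wAPC 3 and bAPC 3 are low for most of the 10 genes.

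FAPLs and CAPs are the divergent fates in the study, and some of the members, Cdkn1a among them, were lower in FAPLs of both depots. Cdkn1a was at 80.9 CPM in wFAPLs and 146 CPM in wCAPs, a log2 ratio of -0.85 (-0.98 to -0.72), and at 133 CPM in bFAPLs and 219.9 CPM in bCAPs, a log2 ratio of -0.73 (-0.84 to -0.62). In WAT 3 of 10 members were called lower, Cdkn1a, Eda2r and Trp53inp1, against a background of 4.87%. In BAT 5 were called lower, the same 3 with Ccng1 and Ptchd4, against a background of 6.06%. None was called higher in FAPLs of either depot. The median ratio over the members was -0.42 in WAT and -0.56 in BAT, beside -0.02 and -0.04 over all genes tested. Against the other labelled white cells, wFAPLs had 1 member called lower (background 3.59% lower) and a median of -0.26. wCAPs had 3 called higher (background 2.56% higher) and 1 lower (background 2.26% lower), with a median of 0.35.

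By role, the arrest gene Cdkn1a was lower in FAPLs together with the receptor Eda2r, which was at 9.76 CPM in wFAPLs against 19.6 CPM in wCAPs, and at 15.4 against 23.6 CPM in BAT. Trp53inp1 was at 31.2 against 54.3 CPM in WAT and 33.7 against 56.6 CPM in BAT. The feedback genes had ratios of -0.44 and -0.49 (Mdm2) and -0.39 and -0.69 (Ccng1) in WAT and BAT. Phlda3 was nearly level, at -0.07 and 0.01. Sesn2 and Gdf15, the members shared with ATF4, had ratios of -0.41 and -0.15 in WAT and -0.15 and -0.47 in BAT. Among male cells, of which only 47 were bFAPLs and 50 bCAPs, the log2 ratio of Cdkn1a in BAT was 0.056 and 2 members were called lower. The share of all genes called in either direction was 10.8% over cells of both sexes. It was higher in these male cells, where the 2 calls were no more than that share would give. Both are given at the end. With G1 cells alone, 4 members in WAT and 5 in BAT were called lower, with backgrounds of 5.96% and 7.57%. wCAPs and wFAPLs had 71.1% and 66.0% of their cells in G1, and bCAPs and bFAPLs 62.5% and 67.4%. Their median depths were close, at 26993 and 26731 UMIs in WAT and 25901 and 25194 UMIs in BAT.

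The list of other p53 targets was read against shares of all genes called of 4.87% lower and 4.18% higher in WAT, and 6.06% lower and 4.71% higher in BAT. In WAT 3 of 20 measured were lower in FAPLs, Tnfrsf10b, Ddb2 and Xpc, and 0 higher. In BAT 5 of 20 were lower, among them the death receptor Fas (-0.79) and the antiproliferative Btg2 (-0.97), and 2 higher, Gadd45a (1.64) and Cd82. Of 12 ATF4 stress response genes 6 were called higher in bFAPLs than in bCAPs, led by Trib3 (1.19) and Ddit3 (0.99), and 0 were called in wFAPLs over wCAPs. Against the other labelled cells of their library, bFAPLs had 0 of these 12 called, with a median log2 ratio of -0.03. There bCAPs had 6 called lower (background 3.08% lower), with a median of -0.59. The difference between the depots was not tested. Trp53 had ratios of -0.31 in WAT and -0.04 in BAT. Cdkn1c, Cdkn2a and Cdkn2b were lower in FAPLs of both depots, Cdkn1c with log2 ratios of -1.12 and -1.33.

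Cell cycle phase was assigned from lists of S and G2/M genes that hold none of the 10 members. In WAT 2684 cells were in G1, 710 in S and 937 in G2/M, and in BAT 3774, 930 and 1254. By their levels 6 of the 10 members in WAT and 8 in BAT were highest in G1. Cdkn1a was at 123, 88.1 and 88.7 CPM in G1, S and G2/M of WAT, and at 204, 126 and 145 CPM in BAT. Its log2 ratio of G1 over S was 0.48 (0.41 to 0.55) in WAT and 0.69 (0.64 to 0.74) in BAT.

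Trp53inp1 had the steepest phase profile of the 10 genes, at 45.2, 18.5 and 22.3 CPM in WAT and 49.3, 20.0 and 28.2 CPM in BAT. Its ratio of G1 over S was 1.29 (1.14 to 1.44) and 1.30 (1.18 to 1.43), nearly equal in the depots. Ptchd4 ran the other way and peaked in S, at 21.6, 35.6 and 24.1 CPM in WAT and 25.9, 35.3 and 23.6 CPM in BAT, with G1 over S at -0.72 (-0.85 to -0.60) and -0.45 (-0.55 to -0.34). Phlda3 was highest in G2/M in both, at 219 CPM in WAT and 266 CPM in BAT.

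For G1 over S, 2 members were called in WAT, Trp53inp1 higher and Ptchd4 lower, with a background of 9.92% in either direction. In BAT 5 were called, all higher in G1, namely Cdkn1a, Ccng1, Zmat3, Trp53inp1 and Eda2r, with a background of 2.57% higher. For G1 over G2/M the 1 call in each depot was Trp53inp1, with backgrounds of 4.54% and 4.37% higher. These counts changed with the cells used. With cells whose phase held by a margin of 0.1 in score, G1 over G2/M had 3 members called in WAT and 5 in BAT and G1 over S had 6 in WAT, while the labelled cells alone gave 2 and 4 in WAT for G1 over G2/M and G1 over S. Over all precursor cells, 11.4% of genes in WAT and 11.1% in BAT were called in either direction for G1 over G2/M. For each of these margin and labelled-cell counts the share in either direction was higher than over all precursor cells, and is given at the end. A fold of 2 left 0 members for G1 over G2/M in BAT. Median ratios of G1 over S were 0.44 and 0.53 over the members and 0.05 over all genes in either depot. Median depth differed between phases, at 25360, 31799 and 31053 UMIs in G1, S and G2/M of WAT and 24759, 29481 and 30670 in BAT, and its part in the phase profile was not tested. Other p53 targets called higher in G1 over S numbered 2 of 21 in WAT, Bbc3 and Dcxr, and 5 of 20 in BAT. Trp53 was lower in G1 than in S, with log2 ratios of -0.36 in WAT and -0.38 in BAT.

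**Figure D3:**
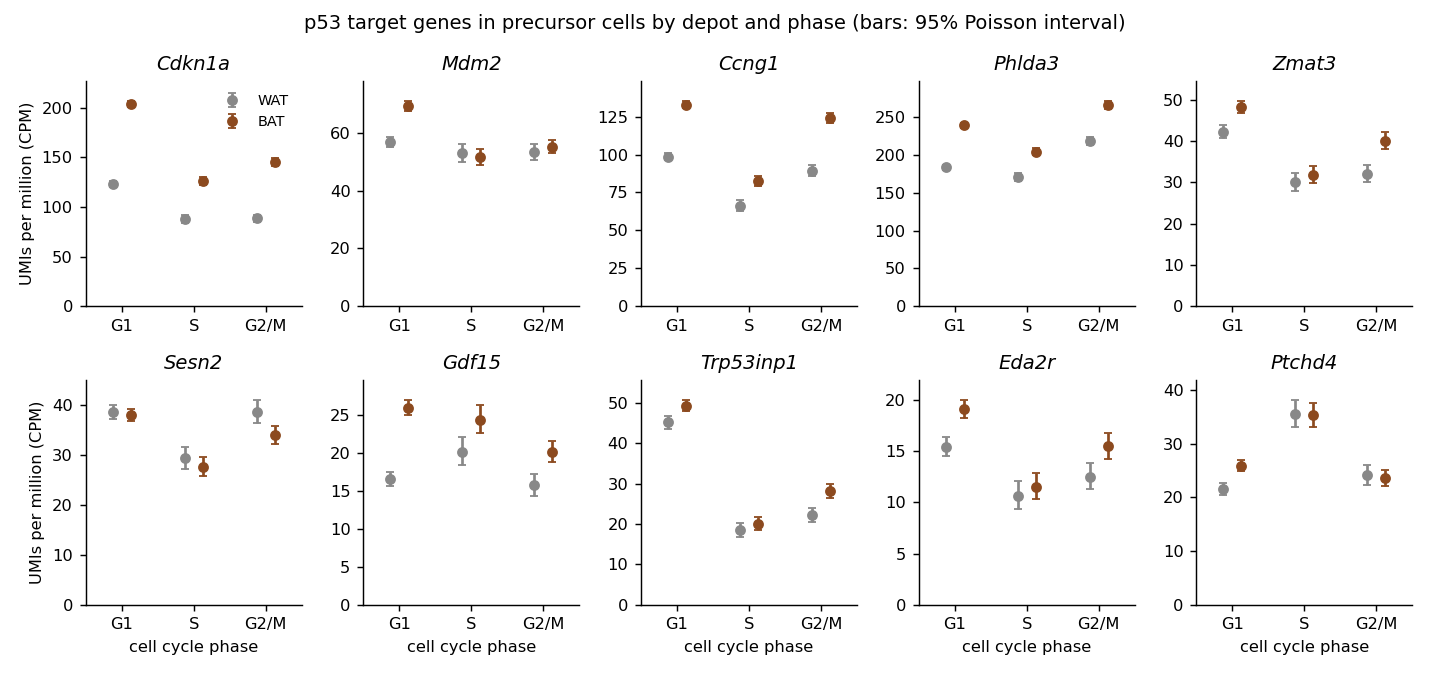
CPM of each of the 10 genes (y axes, 1 panel per gene) in G1, S and G2/M precursor cells of WAT and BAT, with bars for the 95% Poisson interval. Trp53inp1 drops from 45.2 CPM in G1 to 18.5 CPM in S in WAT, and Ptchd4 peaks in S in both depots.

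The transcripts were unevenly shared among the precursor cells of a depot. Cdkn1a had 0 UMIs in 34.7% of white and 23.7% of brown precursor cells, where Poisson counting at the depth of each cell would give 6.60% and 1.51%. The 10% of cells with the most Cdkn1a held 53.5% and 46.6% of its UMIs, and single cells reached 65 in WAT and 92 in BAT beside medians of 1 and 2. At 10000 UMIs per cell its variance was 3.34 and 3.72 times its mean. Sesn2 was the most even by this measure, at 1.10 and 1.08. Ptchd4 was the most concentrated, with 79.3% and 71.1% of its UMIs in the top 10% of cells, followed by Gdf15 with 74.5% and 70.3%, although these were also among the lowest counts.

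Cells with more Cdkn1a also held more of most other members. Across G1 cells, with counts normalized to the total of each cell and log-transformed, Pearson's r with Cdkn1a was computed for the genes with at least 20 CPM, 6633 in WAT and 6516 in BAT. The points are cells of 1 library that differ in depth, so r is a description. Its median over all genes was -0.002 in both depots, and its 95th percentile 0.0858 in WAT and 0.0978 in BAT. Of the members with enough counts, 6 of 7 in WAT and 7 of 8 in BAT lay above that percentile, with Ptchd4 the exception in both.

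Ccng1 followed Cdkn1a most closely among the members, with r of 0.545 in WAT and 0.585 in BAT, which ranked 2 and 1 of all genes. Trp53inp1 ranked 4 and 3 (r of 0.495 and 0.499), Mdm2 8 and 9, Phlda3 9 and 8, and Zmat3 11 and 15. Sesn2 ranked 56 in both, with r of 0.173 and 0.208. Eda2r lay under the minimum of 20 CPM and was left unranked, but its r was 0.445 and 0.465. Gdf15 had r of 0.240 in WAT, where it was unranked, and 0.317 in BAT, where it ranked 25. Ptchd4 had r of -0.048 and -0.066 and ranked 5742 of 6633 and 5947 of 6516. Over the 45 pairs of members the median r was 0.194 in white and 0.233 in brown cells, with 39 and 36 positive pairs. Trp53inp1 with Ptchd4 was the lowest pair in both depots.

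The 10 genes nearest to Cdkn1a by the smaller r of the depots were Ano3, Ccng1, Trp53inp1, Exoc4, Ass1, Bax, Rps27l, Mdm2, Phlda3 and Pvt1. Of these 4 are members and 2, the death gene Bax (r of 0.437 and 0.483) and Rps27l (0.418 and 0.459), were on the list of other p53 targets. The remaining 4 were Ano3, a membrane protein of the anoctamin family (0.603 and 0.557), the exocyst subunit Exoc4 (0.517 and 0.476), Ass1, which makes argininosuccinate (0.464 and 0.469), and the noncoding RNA Pvt1 (0.386 and 0.416). Trp53 itself had r of 0.052 and 0.076. The other CDK inhibitors did not follow 1 direction. Cdkn1b (-0.067 and -0.069) and Cdkn1c (-0.136 and -0.084) were weakly negative, whereas Cdkn2a (0.111 and 0.150) and Cdkn2b (0.102 and 0.173) lay above the 95th percentile. Gadd45a, on the list of other p53 targets, had r of 0.004 and 0.021.

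**Figure D4:**
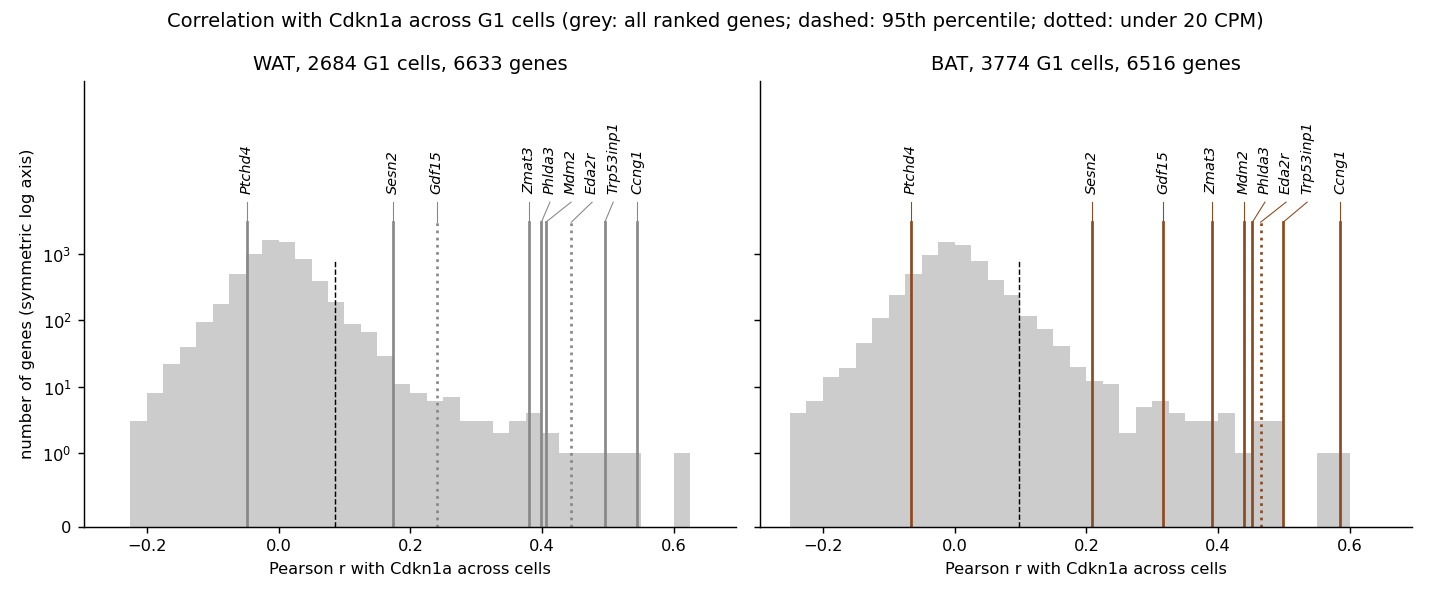
Histogram of Pearson's r with Cdkn1a across G1 cells over all ranked genes (x axis, r; y axis, number of genes on a symmetric log axis) for WAT and BAT, with the members marked and a dashed line at the 95th percentile. Ccng1 and Trp53inp1 lie at the far right and Ptchd4 lies left of 0 in both depots.

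Levels also moved with the number of UMIs in the cell. The bins used here were set after the data had been seen. Among G1 cells with 35000 to 60000 UMIs (322 in WAT, 637 in BAT), Cdkn1a was at 231 and 314 CPM, and among those with 15000 to 25000 UMIs (1169 and 1868) at 98.0 and 146 CPM. In the bin between, from 25000 to 35000 UMIs, it was at 97.7 CPM in WAT, no higher than in the shallower cells, and at 183 CPM in BAT, so that the white level differed only in the deepest of these bins. CPM is relative to all UMIs of the cells, and the median log2 ratio over all genes was 0.01 in WAT. In WAT 8 of 10 members were called higher in the deeper cells, with a background of 1.34% higher, and in BAT 7 of 10, with a background of 0.559% higher. The median ratio over the members was 0.84 and 0.78. Between the depots, brown Cdkn1a was above white in each of these bins. The difference passed 1.5-fold only from 25000 to 35000 UMIs and stayed under it from 15000 to 25000 and from 35000 to 60000 UMIs.

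Cdkn1a had the steepest relation in WAT, with a log2 ratio of 1.24 (1.16 to 1.32), and 1.11 (1.06 to 1.16) in BAT, next to Eda2r with 1.17 and 1.12. Phlda3 (0.30 and 0.38) and Sesn2 (0.25 and 0.45) stayed under 1.5-fold in both depots, and Ptchd4 passed it in WAT (0.84) and was at 0.04 in BAT. Of the other p53 targets 1 of 20 was called higher in WAT and 4 of 21 in BAT, and of the ATF4 and immediate early genes 0 in either depot. Doublets were not called, and their part in this relation was not tested.

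**Figure D5:**
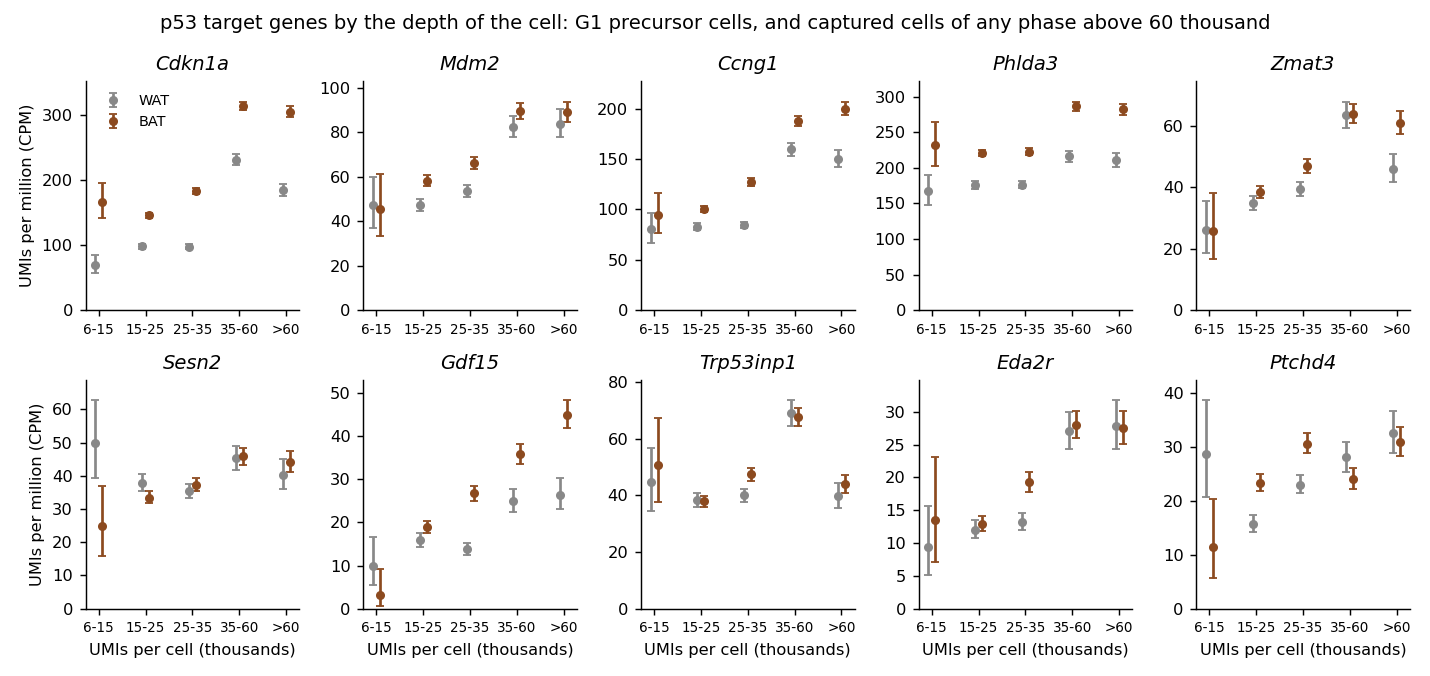
CPM of each of the 10 genes (y axes, 1 panel per gene) by the number of UMIs in the cell (x axis), for G1 precursor cells of WAT and BAT and, in the last bin, all captured cells above 60000 UMIs of any phase, with bars for the 95% Poisson interval. Cdkn1a reaches 231 CPM in white and 314 CPM in brown G1 cells of the bin from 35000 to 60000 UMIs, against 98.0 and 146 CPM in the bin from 15000 to 25000 UMIs.

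The cultures also held small numbers of glial, myeloid and, in BAT, myogenic cells, in which the members were at other levels. p21 is known to rise when myoblasts leave the cycle, and in the 33 brown myogenic cells Cdkn1a stood at 1955 CPM (1869 to 2044) and was present in every cell. Phase was scored in precursor cells only, so the cycle state of the myogenic cells was not tested. Myeloid cells held more Gdf15, at 78.1 CPM (60.4 to 99.4) in WAT (29 cells) and 128 CPM (114 to 144) in BAT (78 cells), and less Phlda3, at 16.6 and 46.4 CPM. Glial cells held less Cdkn1a than precursors, 51.2 CPM in 47 white and 61.6 CPM in 68 brown cells. No Ptchd4 UMI was found in the glial cells, which were shallower than precursors, with medians of 20672 and 19495 UMIs. A count of 0 allows a share of glial cells with a UMI of up to 6.38% in WAT and 4.41% in BAT, which limits detection at this depth and not expression. Of the precursor cells 22.1% and 27.2% held a Ptchd4 UMI, and 13.2% and 15.0% at an equal depth of 10000 UMIs.

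Male and female cells of the same library differed little. No member was called in male over female cells of either depot, where the backgrounds were 0.192% and 0.289% in either direction. The X-linked Eda2r was at 13.7 CPM in female and 13.8 CPM in male white cells, and at 16.7 and 18.5 CPM in brown cells. The largest brown ratio was that of Gdf15, 0.25 (0.12 to 0.37), while in WAT it was -0.02 (-0.18 to 0.14).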

How the data were processed

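The authors made 10x Genomics 3' libraries (v3.1 chemistry) and counted UMIs with Cell Ranger 7.0.1 at its default parameters, which include intronic reads, against mm10. The deposited values are raw UMI counts per gene and cell for 1 white and 1 brown library, without normalization. In the white library 5261 barcodes were deposited and in the brown 7009, with 9 in common.

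The filter of the study's methods was applied (more than 3900 and fewer than 7700 genes, 1.7 to 5% mitochondrial UMIs, 6000 to 60000 UMIs), with a gene counted if 3 or more captured cells held it. It kept 4407 white and 6137 brown cells. Doublets were not called, and only the upper limits on genes and UMIs act on them. Cells were clustered and phased with Seurat 5.3.0 (2000 variable genes, 10 components, resolution 0.5) and clusters holding glial, myeloid or myogenic markers were removed. Cluster names came from the source data of the study and were carried over to other cells by a vote of 15 nearest labelled neighbours, which returned 91.7% of white and 88.0% of brown held-out names. Sex was called per cell from Xist and Y-linked transcripts, which gave 3318 female and 863 male white cells and 4901 and 793 brown cells. Sums, intervals and thinning to 10000 UMIs used Python 3.11.15, numpy 2.4.6, scipy 1.17.1 and pandas 2.3.3. The calling rule was tested on simulated data.

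Members, lists and contrasts were chosen with earlier results of these data known. All 10 members were described. From the lists of other p53 targets, p53 regulators, CDK inhibitors, ATF4 stress response and immediate early genes, those past 1.5-fold in a contrast were eligible to be named, together with Trp53 and the 10 genes nearest to Cdkn1a. The correlations of Cdkn1b, Cdkn1c, Cdkn2a, Cdkn2b and Gadd45a were chosen after their values were seen. Alternatives were another fold, other minimum levels, thinned cells, G1 cells, single sexes, labelled or carried-over cells, a margin on the phase scores, cells of equal weight and depth bins. Gene positions came from the GENCODE annotation of GRCm38 and promoters from RefSeq. Zmat3 and Trp53inp1 were not among the promoters used here.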

Additional observations from a re-analysis of the deposited data

Results flagged for a closer look

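Ptchd4 was the 1 member whose ratio of G1 over G2/M had opposite signs in the depots with both counting intervals clear of 0. In WAT it was at 21.6 CPM in G1 and 24.1 CPM in G2/M, a log2 ratio of -0.16, and in BAT at 25.9 and 23.6 CPM, a log2 ratio of 0.14. The difference was not tested, since each depot has 1 library, and both ratios are under 1.5-fold.

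Captured cells above the maximum of 60000 UMIs were plotted by depth beside the G1 bins, but entered no called ratio of the report. There were 117 in WAT and 245 in BAT, of any phase and type, with medians of 66883 and 67402 UMIs. Compared with the filtered precursor cells of the same library, 5 members were past 1.5-fold higher in WAT (background 3.63% higher) and 4 in BAT (background 1.62% higher). In WAT the log2 ratios were 0.77 for Cdkn1a, 0.60 for Mdm2, 0.73 for Ccng1, 0.63 for Gdf15 and 1.01 for Eda2r. In BAT they were 0.78 for Cdkn1a, 0.71 for Ccng1, 0.88 for Gdf15 and 0.70 for Eda2r. Doublets were not called among these cells.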

How the results depend on the processing

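No paired analysis was possible because each depot has 1 library, so that the depots share fewer than 2 replicate numbers, and no library could be left out for the same reason. Of 100 counts of members under alternatives, 80 stayed within 1.5 times the reported count and 20 did not, while the 590 values of single members kept their sign in 555 cases, with a median shift of 0.050 on the log2 scale. Each count that moved is given with the share of all genes called in either direction in the same setting. A fold of 2 in place of 1.5 left 0 members for BAT over WAT (1.91%), 1 for wFAPLs over wCAPs (3.68%), 0 for bFAPLs over bCAPs (4.04%), 1 for G1 over S in WAT (4.05%) and in BAT (3.78%), and 0 for G1 over G2/M in BAT (4.62%). In male cells alone the counts were 2 for BAT over WAT (6.53%), 5 for wFAPLs over wCAPs (18.9%), 2 for bFAPLs over bCAPs (24.01%), 2 for G1 over G2/M in WAT (14.0%), and 5 and 3 for G1 over S in WAT (13.1%) and BAT (13.8%). In G1 cells alone BAT over WAT had 2 members called (5.84%), and in G1 cells with 25000 to 35000 UMIs, a range chosen after seeing the data, 3 (5.80%). With labelled cells only, G1 over G2/M and G1 over S in WAT had 2 (11.9%) and 4 (10.9%). With a margin of 0.1 on the phase scores they had 3 (14.9%) and 6 (16.5%) in WAT, and G1 over G2/M in BAT had 5 (15.5%). Thinned cells gave 3 for G1 over S in BAT (9.46%). In these settings the cause was not tested. The 1 called value that reversed was Cdkn1a in bFAPLs over bCAPs of male cells, 0.056 over 47 and 50 cells against -0.73 over all. The spread over clusters and the correlation with Cdkn1a kept their counts within 1.5 times in every alternative run. With 1 library per depot, differences between animals, cultures and captures have no estimate.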
